A study of Mus musculus with 6 samples.

Results

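Accessible CpG-poor promoters are the intervals of open chromatin that lay over the start of a coding gene with few CpG dinucleotides. A start was called CpG-poor when the ratio of observed to expected CpG was under 0.4 in the 1001 bp centred on it, in the reference sequence GRCm39. Of 20444 canonical coding starts of GENCODE M39 on the 19 autosomes, 7468 (36.5%) were CpG-poor. An interval was a member when it overlapped the 500 bp on either side of a CpG-poor start and no such window of a start with a ratio of 0.4 or more. By this rule 3055 of the 279569 distinct intervals were members, which was 1.09% of all intervals and 21.0% of the 14536 intervals at coding starts. The rule used sequence and position but no peak height.

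The intervals came from ATAC-seq, in which a transposase inserts adapters into accessible DNA, on nuclei of mouse kidney cortex. The labels gave 3 WT and 3 Acly cKO libraries, all with the label Control for treatment. In the study's methods the controls were Cre-negative littermates with both alleles of Acly floxed (Acly fl/fl), and the Acly cKO mice were Acly fl/fl with Ksp-Cre. Acly encodes the enzyme that makes cytosolic acetyl-CoA from citrate. The methods also count further WT datasets from an earlier deposit, whose Acly alleles they do not describe, and which libraries entered the pooled call is unknown. Cre came from a transgene under promoter sequence of Cdh16 (Ksp), active in tubule epithelium from the proximal tubule to the collecting duct. The WT libraries were of batches 1 and 2 and the Acly cKO libraries of batches 4 and 5, so any effect of genotype and of batch cannot be told apart. The data held 1 peak call on pooled reads with no value per library, so genotypes were not compared, replicate error and library depth are unknown, and every interval below covers counting error only. In such bulk tissue, fewer cells of a type and less accessibility per cell cannot be told apart.

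Most mammalian housekeeping genes start in CpG islands, where CpG sites stay unmethylated and open in nearly every cell type. CpG-poor promoters are largely those of genes used in 1 tissue or few, are often methylated where they are silent, and open where tissue-specific factors bind. In the kidney tubule such factors include the HNF1 and HNF4 families, which are shared with the liver.

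The promoter sequences that the results below turn on are shown here, 5′ to 3′ on the gene's strand and in GRCm39. Position 0 is the start of the canonical transcript, so the last upstream base is at −1. The strongest member lay over Cdh16, which encodes a cadherin of the tubule epithelium, and its 29 bases from −31 to −3 (chr8:105351031-105351059, minus strand) are given with the base of the highest summit in a capital. The 150 bases upstream of Slc6a18 (chr13:73826146-73826295, minus strand), a transporter of neutral amino acids of the proximal tubule, hold an HNF1 match from −59 to −47 and an HNF4 match (CAAAGTCCA with up to 1 mismatch) from −91 to −83, in capitals. Those of the MHC class II genes H2-Aa (chr17:34506798-34506947, minus strand) and H2-Ab1 (chr17:34482033-34482182, plus strand), and 29 bases of H2-Eb1 (chr17:34524770-34524798, plus strand), are shown for their CCAAT boxes (CCAAT or its reverse complement) and, in H2-Aa, a CRE (TGACGTCA), in capitals. Those of the skin gene Loricrin (chr3:91990450-91990599, minus strand) hold a TATA box from −27 to −22 and an AP-1 site from −48 to −42, in capitals.
Cdh16: gaccaagagctgccCacctcctagggctg
Slc6a18: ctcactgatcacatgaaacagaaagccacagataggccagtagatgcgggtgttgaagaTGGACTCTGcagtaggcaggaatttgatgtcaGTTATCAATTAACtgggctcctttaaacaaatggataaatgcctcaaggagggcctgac
H2-Aa: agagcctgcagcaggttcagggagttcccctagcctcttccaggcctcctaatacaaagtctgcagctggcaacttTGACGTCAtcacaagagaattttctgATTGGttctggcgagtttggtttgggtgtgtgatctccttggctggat
H2-Ab1: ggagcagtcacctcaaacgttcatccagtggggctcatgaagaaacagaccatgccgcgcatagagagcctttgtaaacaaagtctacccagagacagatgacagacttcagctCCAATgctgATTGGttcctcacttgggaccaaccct
H2-Eb1: cctttgatgctgATTGGctcccagcactg
Loricrin: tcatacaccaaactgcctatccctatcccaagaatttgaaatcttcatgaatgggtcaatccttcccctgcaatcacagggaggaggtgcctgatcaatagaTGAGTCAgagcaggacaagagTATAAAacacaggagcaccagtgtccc

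A member lay over 2893 of the 7468 CpG-poor starts, 38.7% (95% Wilson interval 37.6 to 39.8). A further 155 starts had only an interval shared with a start of higher ratio, and 4420 (59.2%) had none and are called closed below. With shared intervals included, 40.8% of CpG-poor starts were accessible, against 12562 of the 12976 other coding starts (96.8%), a difference of −56.0 points (Newcombe's interval −57.1 to −54.8). Most members were simple: 3004 covered 1 CpG-poor start and 51 covered 2 or more, with at most 4, and 210 starts had 2 or 3 members.

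The share that was accessible rose with the CpG ratio within the CpG-poor class. It was 14.6% of starts under 0.1, 32.7% from 0.1 to 0.2, 54.9% from 0.2 to 0.3 and 69.6% from 0.3 to 0.4. The median fold enrichment of the accessible starts, which is the pooled signal at the highest summit over the caller's background, rose along the same bins from 3.83 to 5.30, 7.33 and 10.9. The threshold of 0.4 lay on a slope and not at a step. Of 242 starts from 0.38 to 0.40, 74.0% had an interval (median fold 12.8), and of 252 starts from 0.40 to 0.42, 79.8% did (median fold 11.8). Eng, an endothelial coreceptor for TGF-beta ligands, was the member nearest below the threshold, at fold 5.50, followed by Pde4dip at 3.08. Just above it were Cplx3, with a ratio of 0.400002 and fold 8.71, and 2410137M14Rik at fold 3.14.

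**Figure D1:**
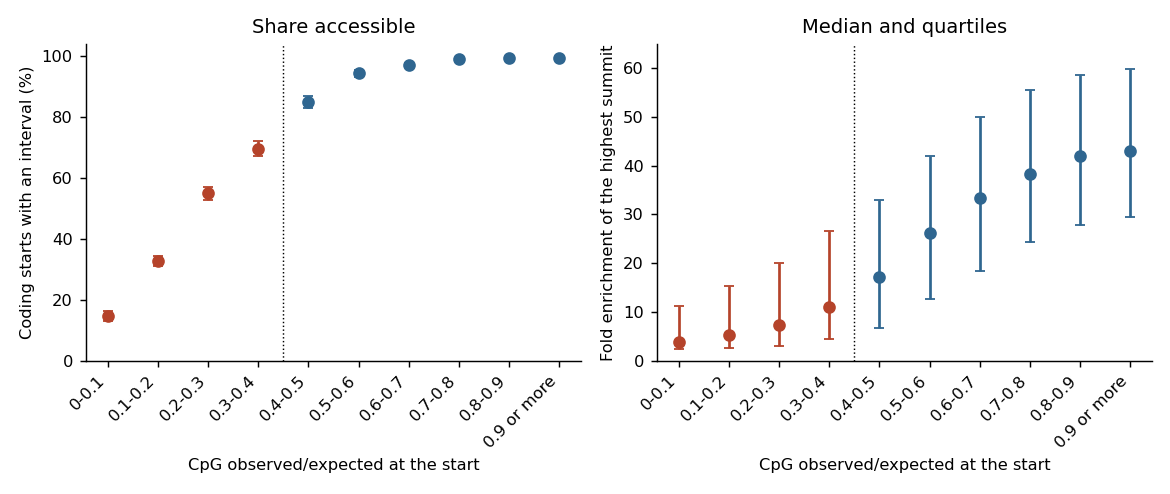
Coding starts in bins of the CpG observed/expected ratio in 1001 bp. Left, the share of starts with an interval (%, bars are 95% Wilson intervals); right, the median fold enrichment of the highest summit (bars are quartiles). Red bins are CpG-poor and the dotted line marks 0.4. The share climbs from 14.6% under 0.1 to 69.6% at 0.3 to 0.4 and is 84.9% in the next bin.

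Members were lower than other promoter intervals and higher than the rest of the open genome. Their fold enrichment had a median of 5.63 (95% order-statistic interval 5.24 to 6.09), quartiles of 2.55 and 15.7, and a range of 1.70 to 162. The 11481 intervals at the other coding starts had a median of 34.0 with quartiles of 18.8 and 51.1, and the 265033 intervals at no coding start had a median of 2.49. A member was the higher of the pair in 16.1% of all pairs of a member with an interval at another coding start. The median −log10 q was 35.4 for members, 589 for other promoters and 5.48 at no coding start.

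The members spanned weak and strong sites. Of the 3055, 957 (31.3%) were under 3-fold, 1621 (53.1%) reached 5-fold, 606 (19.8%) reached 20-fold and 77 (2.52%) reached 50-fold. Over all intervals of the list 24.5% reached 5-fold, and at other coding starts 93.0% did. Members were also narrower, with a median width of 1230 bp against 3163 bp at other coding starts and 409 bp elsewhere. At like widths the gap was smaller among narrow intervals. Up to 500 bp the medians were 2.10 for members and 2.16 for other promoters, while from 2000 to 4000 bp they were 15.1 and 35.9, and 11.1 for intervals at no coding start.

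**Figure D2:**
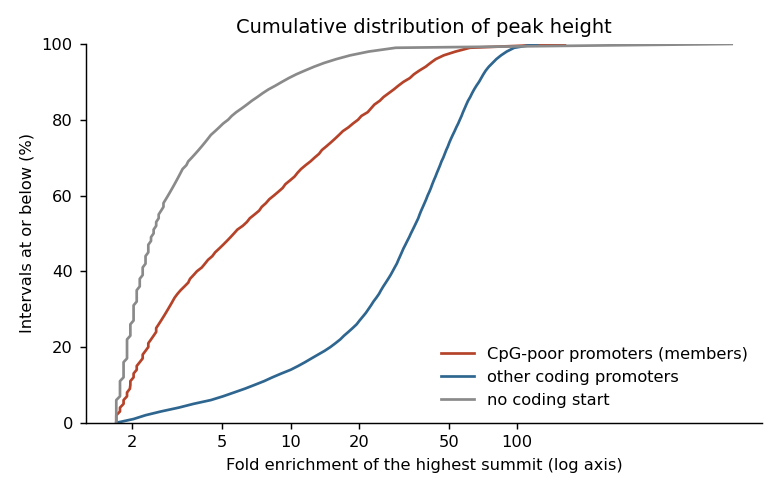
Cumulative share of intervals (%) by the fold enrichment of the highest summit (log axis) for the 3055 members, the 11481 intervals at other coding starts and the 265033 intervals at no coding start. The members' curve lies between the others, with medians of 5.63, 34.0 and 2.49.

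The highest summit of a member sat less often at the start than that of another promoter interval. It lay within 500 bp of a CpG-poor start in 2212 members (72.4%) against 88.6% of the others, a difference of −16.2 points (−17.9 to −14.6). The median distance was 172 bp in members and 73 bp in the others. Within 100 bp lay 38.6% of members, and over 1000 bp away lay 387 (12.7%). By the canonical transcript, 45.4% of the highest summits were upstream of the start, 35.2% in exon 1 and 13.6% in intron 1, and 28 lay past the end of the gene.

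The strongest members were those in which summit and start most often came apart. The share with the summit within 500 bp was 80.6% among 1434 members under 5-fold, 66.4% from 5 to 20, 64.5% from 20 to 50 and 53.2% among the 77 at 50 or more. The median width rose along the same classes, from 437 bp to 1965, 3969 and 5035 bp. A wider interval can hold its summit farther from the start, and the part of width in these shares was not tested. The CpG ratio around the summit itself was 0.4 or more in 5.37% of the members under 5-fold and in 44.2% of those at 50 or more. In all, 124 members (4.06%) had a ratio of 0.6 or more around the summit, and their median fold was 26.0. In 222 members another coding transcript of some gene started within the interval's reach at a ratio of 0.4 or more (median fold 24.3), and the other 2833 had a median of 5.17. The 2093 members with a summit both within 500 bp and in CpG-poor sequence had a median of 4.39.

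**Figure D3:**
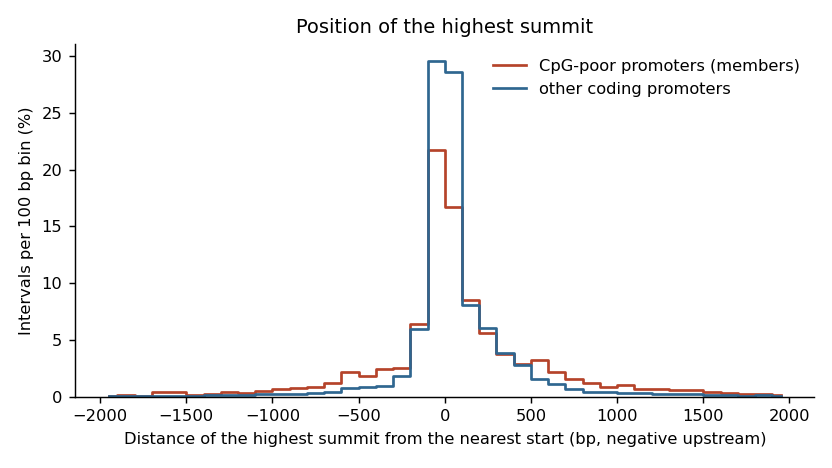
Distance of the highest summit from the nearest start (bp, negative upstream) in bins of 100 bp, as a share of the 3055 members and of the 11481 intervals at other coding starts (%). Both peak at the start, and the members' profile is lower there and has wider flanks on both sides.

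Of the 12 strongest members, 10 had the highest summit over 500 bp from the CpG-poor start, and in 8 of these the sequence around it had a ratio of 0.4 or more. Rap2b, a small GTPase, reached 87.5 at a summit 2228 bp into exon 1, where the ratio was 0.51, and had no summit within 500 bp of its start. Clec11a, a secreted growth factor of the skeleton, reached 87.2 at 1813 bp downstream (ratio 0.69) and 4.12 at its start. Ell2, an elongation factor of RNA polymerase II, reached 85.3 at 680 bp downstream (ratio 0.83), and Angptl6 reached 84.7 at 1510 bp (ratio 0.85) with 4.26 at its start. At these genes the fold enrichment of the interval was thus not that of the CpG-poor start.

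Other strong members had tall summits in CpG-poor sequence away from the start. Slc6a18 reached 80.3 at a summit 14515 bp upstream (ratio 0.22) inside an interval of 21750 bp with 57 summits, and 16.6 within 500 bp of the start. Sh3tc1 reached 75.4 at 670 bp downstream (ratio 0.24) and 10.1 near its start. Ambp, a plasma protein precursor made by the liver, had its summit of 58.0 at 18290 bp upstream and 3.67 near its start. The same interval also lay over the CpG-poor start of Kif12, a kinesin, and this summit was 324 bp upstream of that start.

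Cdh16 stood apart from all other members. Its interval on chromosome 8, from 105341744 to 105353756 on GRCm39, held 38 summits, and the highest, 17 bp upstream of the start at 105351028, reached 162-fold with a −log10 q of 4483. The next member had 87.5, and the highest interval at the other coding starts had 122. Among all intervals of the list Cdh16 ranked 11. The other 37 summits of the interval lay between 1.96 and 8.64, the nearest at 1400 bp upstream (4.45) and 906 bp downstream (8.64). Its second summit was thus 5.32% of the highest, the lowest value among the 560 members with 10 or more summits, where the median was 67.9%. The Cre transgene of the Acly cKO mice carries promoter sequence of this same gene, and in the pooled call reads from the transgene and from the gene's own promoter cannot be told apart.

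Among members whose summit lay within 500 bp and in CpG-poor sequence, the 15 highest began with Cdh16 and Fam13a. The genes of these given here were chosen after their values were seen. Fam13a had 73.1 at 41 bp upstream and the zinc finger gene Zfp958 70.3 at 6 bp downstream. Elf3, an ETS factor of epithelia, had 64.9 at 14 bp upstream. Hpn, a membrane serine protease that cleaves uromodulin, had 63.1 at 85 bp upstream. Ticam1, the TRIF adaptor of Toll-like receptors, had 60.9 at 145 bp upstream, and Gpr39, a zinc-sensing receptor, 59.3 at 36 bp downstream. All of these summits lay within 145 bp of the start.

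Most listed genes of the tubule with a CpG-poor start were accessible. Of 52 such proximal tubule genes 48 (92.3%) had a member, against 38.7% of all CpG-poor starts and 48.1% without chemoreceptor genes (olfactory, vomeronasal and taste receptors), the same background as for the lists that follow. Their highest summits had a median fold of 14.9 (range 2.42 to 80.3) against 6.55 over all member genes. Of the 48, 43 reached 5-fold and 19 reached 20-fold. Within 500 bp of the start the median was 11.2, against 4.65 over all member genes. Pdzk1ip1, a membrane protein of the brush border, had 57.0 at 265 bp downstream. Ggt1, the gamma-glutamyl transferase of that border, had 46.0 at 2575 bp upstream and 21.1 near its start. Tinag had 37.1 at 718 bp upstream and the water channel Aqp1 had 35.1 at 181 bp downstream. The lowest were Mep1b at 2.88 and Slco1a1 at 2.42. Slc22a8 and Slc22a30, organic anion transporters, had no interval, and Slc34a1 and Ttc36 had only an interval shared with a CpG-richer start.

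The distal segments gave lower maxima. In the thick ascending limb and distal convolution 14 of 16 CpG-poor genes had a member, with a median of 13.5 and a range of 4.12 to 24.6. Bsnd, the barttin subunit of the distal chloride channels, had 24.6 at 47 bp downstream. Umod, which encodes uromodulin and had a CpG ratio of only 0.02, had 20.8 at 206 bp upstream, and Sostdc1 had 20.7 at 33 bp upstream. Tmem52b had 17.0 and the potassium channel Kcnj1 15.2, both at summits over 2000 bp away, with 12.9 and 8.71 near their starts. Slc12a1, the target of loop diuretics, had 8.51 at 3 bp downstream. The calcium-handling genes Pvalb and Slc8a1 had none.

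In the collecting duct 10 of 11 CpG-poor genes had a member, with a median of 7.86. Scnn1a, the alpha subunit of the epithelial sodium channel, had 24.7 at 70 bp upstream, and Scnn1b had 10.5 at 290 bp downstream. Genes of intercalated cells ranged from the bicarbonate transporter Slc4a9 at 22.5 (2436 bp upstream, 8.18 near the start) and the proton pump subunit Atp6v0d2 at 14.5 to the anion exchanger Slc4a1, which had no interval. The vasopressin-regulated channel Aqp2 had 4.19.

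The other cells of the cortex were accessible but low at most of their CpG-poor starts. All 10 such endothelial genes had a member, but none exceeded 5.96 (Tie1), and the median was 3.57. Cdh5, the VE-cadherin of endothelial junctions, had 4.12. Podocyte genes were seldom in the class, since 11 of the 13 listed had CpG-richer starts, all with an interval. Nphs1, which encodes nephrin of the slit diaphragm, had 3.14, and Clic3 had only a shared interval. Stromal genes had 11 members of 13 with a median of 5.63, led by the smooth muscle gene Tagln at 13.6 (1010 bp upstream, 4.45 near its start) and the collagen gene Col1a1 at 10.9 (928 bp downstream, 3.67 near its start). The renin gene Ren1 and Postn had none.

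Immune genes split into a small strong group and a large weak or closed one. Of 29 CpG-poor immune genes 20 had a member, with a median of 2.62. The MHC class II genes H2-Eb1, H2-Ab1 and H2-Aa had 22.6, 21.0 and 19.9 at summits 41, 23 and 75 bp upstream, and Cd74, the class II invariant chain, had 25.0 at 140 bp upstream. Csf1r had 27.6, but at 4502 bp downstream, with 2.88 near its start. The other 15 members were at most 4.45 (Fcer1g), among them the macrophage complement genes C1qa, C1qb and C1qc at 2.49, 1.96 and 2.82. No interval lay at the T-cell genes Cd3d, Cd3e, Cd4 and Cd8a, at the B-cell gene Ms4a1, or at Itgam and S100a9 of myeloid cells. MHC class II is carried by professional antigen-presenting cells and can be induced in other cells, and which cells gave these peaks was not tested.

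The remaining class II genes, looked at after those values were seen, did not all share the height. H2-DMb1 had 22.8, H2-DMb2 14.3, H2-Ob 6.61, H2-Eb2 3.14 and H2-Oa 2.23, while H2-DMa had a CpG-richer start with 45.3. A CCAAT box within 150 bp upstream, the core of the Y box that NF-Y binds in class II promoters, was found at H2-Aa from −48 to −44, at H2-Ab1 from −36 to −32 and from −27 to −23, and at H2-Eb1 from −31 to −27, as the sequences above show, and at H2-Eb1 also from −7 to −3, outside the stretch printed. H2-Aa also held the CRE from −74 to −67, next to its summit at −75. A CCAAT box was also found at H2-DMa, H2-DMb2, H2-Ob and the low gene H2-Eb2, and was not found at H2-DMb1, H2-Oa or Cd74. Of all coding starts, 39.5% held CCAAT in the 301 bp window used below, which is longer than the 150 bp searched here.

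Genes of injury and inflammation were accessible in this pooled call. The labelled libraries had the treatment label Control, but which libraries entered the pool is unknown. The study's methods give the aim of the ATAC-seq as the part of ACLY in accessibility during kidney injury. Of 8 CpG-poor genes 7 had a member, with a median of 13.6 and a lowest value of 7.46. The values were 32.2 for Spp1 (osteopontin, 12.4 near its start), 31.9 for Il34 at 9607 bp upstream (17.3 near its start), 22.9 for Lcn2 at 201 bp upstream, 13.6 for Vcam1, 11.9 for Il6, 7.59 for Ccl2 and 7.46 for Havcr1 (KIM-1) at 97 bp upstream. Sprr2f had no interval.

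Genes of other organs were mostly closed, and the highest summit of 2 of the 6 members lay over 500 bp from the start. Of 20 CpG-poor genes of this kind 14 had no interval, among them Myh6 of heart, Ins2 of the islet, Prl of the pituitary and Sftpc of lung. Loricrin, a protein of the cornified envelope, had 34.6, but at 2090 bp downstream where the CpG ratio was 0.85, and 2.42 near its start. Cela1 had 8.31 at 741 bp downstream, Krt10 2.55, Ckm and Gfap 1.96 and Tnnt3 1.70. The median of the 6 members was 2.26.

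Liver genes lay between the extremes. Of 29 CpG-poor genes of the liver list, most of them of secreted proteins, 21 had a member, with a median of 4.84. The complement gene C3 had 46.4 at 5059 bp upstream and 20.2 near its start. Fga, a fibrinogen chain, had 24.2 at 101 bp upstream, while Fgb had 5.50 and Alb, which encodes albumin, 2.95. Apob had 16.5 (6.35 near its start) and Apoc3 13.3. The 8 without an interval included Ahsg, Afp and Cps1, an enzyme that is not secreted.

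**Figure D4:**
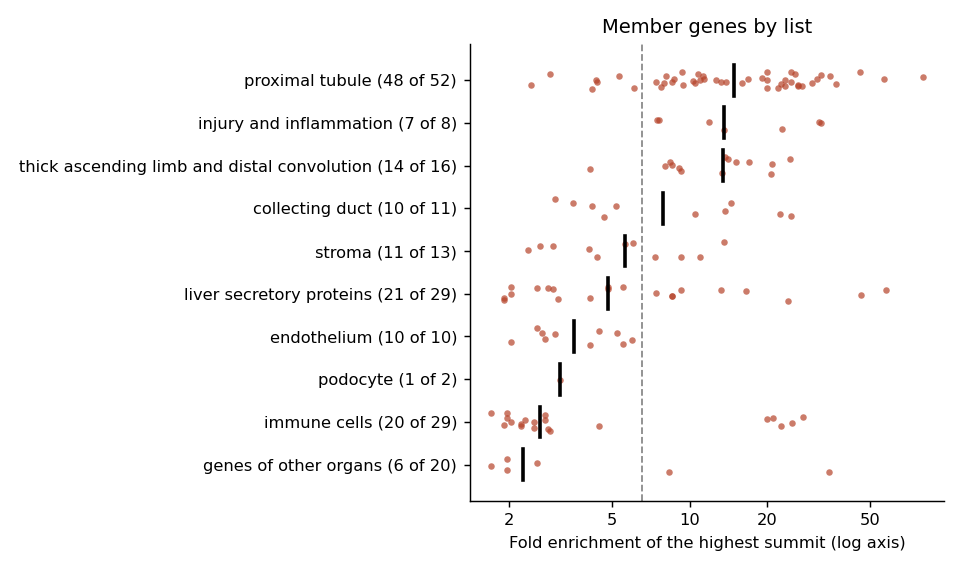
Fold enrichment of the highest summit (log axis) of each member gene in the 10 lists, with the number of members of CpG-poor genes in brackets. Black bars are list medians and the dashed line is the median of all member genes, 6.55. Proximal tubule genes reach 80.3 with a median of 14.9, the 10 endothelial genes stay at or below 5.96, and 15 of 20 immune genes lie at or below 4.45.

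Gene families showed the same range from open to closed. Solute carriers, a family of membrane transporters, had a member at 102 of 133 CpG-poor genes. Their median fold was 10.5, and 7.73 near the start. Of the glutathione S-transferases 17 of 18 had a member, with a median of 16.6, but of 6.61 near the start. They were led by Gstt2 at 44.3 (2142 bp upstream, 25.5 near its start) and Gstm7 at 43.3 (30 bp downstream). Cytochromes P450 had a member at 31 of 83, led by Cyp4f13 at 35.9. Olfactory receptors had a member at 21 of 1127 (1.86%) and vomeronasal receptors at 2 of 347 (0.58%). Keratin-associated proteins had 19 of 110 with a median of 2.10, and the prolactin family had 1 of 25. Without olfactory, vomeronasal and taste receptors the share over all CpG-poor starts was 48.1%. The authors kept uniquely mapped reads only, and how far near-identical gene copies lost reads by this was not tested.

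Zinc finger genes named Zfp were the strongest family. Of their 105 CpG-poor genes 60 had a member, with a median of 33.6, and 41 of the 60 reached 20-fold. In 55 of them the highest summit lay within 500 bp of the start. They were not alike at every CpG ratio. From 0.3 to 0.4, 45 Zfp members had a median of 35.2 (quartiles 28.0 and 41.2) against 9.66 (3.86 and 22.8) for 822 other members, while from 0.2 to 0.3 the medians were 7.46 for 9 Zfp members and 6.42 for 939 others. Zfp626 and Zfp366 were among the lowest members at 1.70.

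Motifs other than the TATA box were searched from 250 bp upstream to 50 bp downstream of the start, 301 bp in all, on both strands. The 2893 member starts were set beside the 4420 CpG-poor starts without an interval, which are under the same threshold but were not alike in base composition: their median GC content over 1001 bp was 42.6%, against 51.1% at member starts. Accessible starts of higher ratio had 59.5%. The part of GC content in the shares below was not tested.

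An HNF1 match (GTTAATNATTAAC with up to 2 mismatches) was found at 97 member starts (3.35%) and at 88 closed ones (1.99%), a difference of 1.36 points (0.61 to 2.17). Over all coding starts the share was 1.26%. Among member starts the share rose with the height of the interval's highest summit, which can lie far from the start. It was 1.45% (0.92 to 2.28) of member starts under 5-fold. From 5 to 20 it was 4.20% (3.13 to 5.61), and at 20 or more 5.72% (4.16 to 7.82). The share under 5-fold was below the 1.99% of closed starts (1.62 to 2.45), with intervals that overlap. The matches of members clustered just upstream of the start, with 15.6 per 1000 starts from −50 to −1 and 11.4 from −100 to −51, against 5.88 and 3.17 at closed starts. In all 3 bins farther upstream closed starts had more, with 0.35 at members and 2.49 at closed starts from −250 to −201, 2.42 and 3.17 from −200 to −151, and 4.49 and 5.43 from −150 to −101. With 3 mismatches allowed the difference of the shares reversed to −4.78 points.

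Among the listed genes the HNF1 matches fell into 3 of the 10 lists. They were found at 9 of 48 proximal tubule members, 3 of 14 of the thick ascending limb and distal convolution and 4 of 21 liver members, and at none of the 65 members of the other 7 lists. Over all member starts the share was 3.35%, at which 65 members would hold few matches or none. All 16 listed matches had exactly 2 mismatches, and 10 lay wholly within 100 bp upstream of the start. Of the 16 members 14 were at least 5-fold, the exceptions being Alb and F2. These matches are shown in capitals with 8 bases on either side, in the order proximal tubule (Cyp2e1 to Tinag), distal segments (Slc12a1 to Umod) and liver (Alb to Fgb).
Cyp2e1: caactgcaGCTAATAATAAACcagcactt
Folr1: ctggaaagGTTAATTATTCAGaagctgta
G6pc1: gtgcccaaGTTAATAATTGGCtctgccaa
Hao2: tatggaaaGTTAATAAGCAACtactttat
Hnf4a: cgggggtgATTAACCATTAACtcctaccc
Slc17a1: agtgtaaaGTTAAACATTAAGcattaccc
Slc6a18: tgatgtcaGTTATCAATTAACtgggctcc
Slc7a13: cttattctGATAATTATTAAAagaagggt
Tinag: gttttttgATTAATGTTTAACcataaaag
Slc12a1: ctaaaaggATTAATGATTTACtactagtt
Tmem52b: cctgcaggGTTGATTATCAACacggtaag
Umod: ttttgccaGTTAATGTCTAACtgaggaat
Alb: taagtatgGTTAATGATCTACagttattg
F2: tcacatcgGTTCAATATTAACccagagag
Fga: gggccaagGGTGATGATTAACctcctgcc
Fgb: accaaaatGTCAAATATTAACtaaaggga
Hnf4a, itself a factor of proximal tubule and liver, had its match from −75 to −63 and its summit of 25.7 at 9 bp upstream. G6pc1, the last enzyme of gluconeogenesis, had its match from −48 to −36 and 11.4 at 81 bp upstream. Fga had its match from −112 to −100 and its summit within that stretch, at −101. Umod had its match from −204 to −192 and its summit of 20.8 at −206. Slc7a13 had a match from −131 to −119 but only 2.36 near its start, so a match and a local peak did not always go together. Cdh16 had a match downstream of its start, from 34 to 46.

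A TATA box (TATAAA on the sense strand from 45 to 20 bp upstream) showed the opposite order. It was found at 64 member starts (2.21%) and at 290 closed CpG-poor starts (6.56%), a difference of −4.35 points (−5.25 to −3.43), and at 0.64% of accessible starts of higher ratio. Without chemoreceptor genes the difference was −6.15 points. Among members it fell from 2.90% under 5-fold to 1.27% at 20 or more, with Wilson intervals (2.10 to 3.99 and 0.65 to 2.49) that overlap. Over all coding starts 2.19% held it. Loricrin, shown above, is a member with a TATA box whose own start had only 2.42.

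The CTCF core (CCANNAGNNGGC) was found at 2.73% of member starts and 0.79% of closed ones, a difference of 1.94 points (1.32 to 2.63), and at 3.12% of accessible starts of higher ratio. The direct repeat DR1 (AGGTCANAGGTCA with up to 2 mismatches), a site of HNF4, PPAR and RXR receptors, was found at 6.08% and 4.03%, a difference of 2.06 points (1.03 to 3.13). GATA sites (AGATAA) were rarer at member starts, at 12.7% against 19.5%. The GC box (GGGCGG), which holds a CpG and so is partly set by the rule, was found at 19.5% against 4.66%, and at 63.2% of accessible starts of higher ratio. For AP-1 (TGANTCA) the shares were 11.1% and 11.6%, with a difference of −0.48 points (−1.94 to 1.03), and for PU.1 (GAGGAAGT), the ETS factor of myeloid and B cells, 4.94% and 4.50% (0.44 points, −0.54 to 1.47). Without chemoreceptor genes the difference was 1.70 points (1.00 to 2.43) for the CTCF core and 1.23 (0.07 to 2.40) for DR1. For AP-1 it was then −0.22 points (−1.84 to 1.41) and for PU.1 1.31 (0.26 to 2.37). The remaining motifs were the HNF4 site given above (12.4% at member and 10.7% at closed starts), CCAAT (37.1% and 42.8%), the ETS site CCGGAAG (3.01% and 1.61%), the CRE (1.04% and 0.59%), the ERR site TCAAGGTCA (0.41% and 0.86%), the glucocorticoid element GAACANNNTGTTC with up to 1 mismatch (0.93% and 1.43%) and the interferon element GAAANNGAAA (5.15% and 4.86%). ETS and CRE sites hold a CpG, and ERR and DR1 share the letters AGGTCA. Starts in gene clusters share sequence, and 15 motifs were compared, so these intervals are descriptions of 1 genome and 1 peak call.

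**Figure D5:**
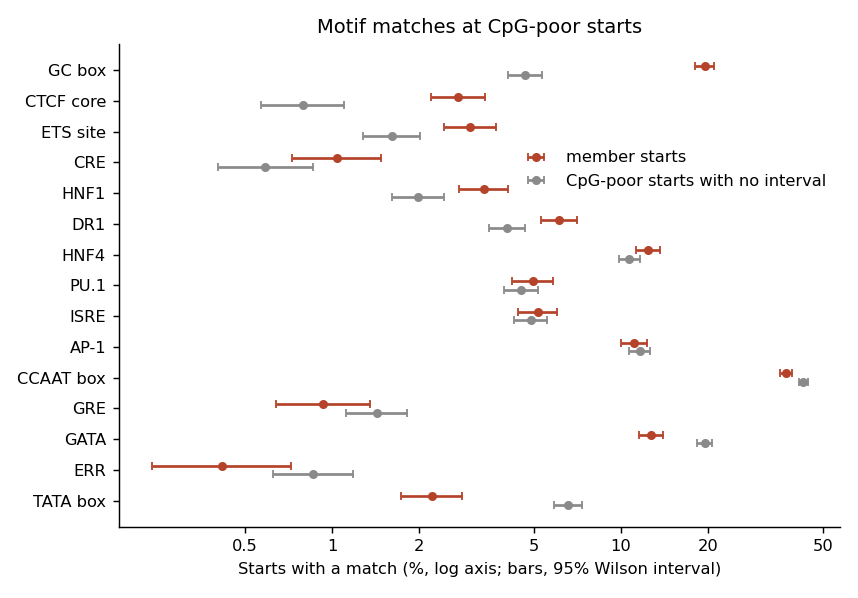
Share of starts (%, log axis) with a match to each of 15 motifs from 250 bp upstream to 50 bp downstream (the TATA box from 45 to 20 bp upstream on the sense strand only), for the 2893 member starts and the 4420 CpG-poor starts with no interval; bars are 95% Wilson intervals. HNF1 is at 3.35% and 1.99%, the CTCF core at 2.73% and 0.79%, and the TATA box at 2.21% and 6.56%.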

How the data were processed

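ATAC-seq libraries of mouse kidney cortex were grouped by their labels into 3 WT and 3 Acly cKO. The authors trimmed reads, aligned them to mm39 with Bowtie2 2.3.4.3, removed duplicates and reads without a unique position, called peaks with MACS3 3.0.0 and removed blacklisted regions with bedtools 2.29.1. The deposited list is 1 call on pooled reads and does not name its libraries. The authors' fold enrichment is a linear ratio of the signal at each summit to the background, and the deposited −log10 q and summit offset (a score in bp from the interval start) are as the caller wrote them. The depth per library is unknown.

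The 749750 summits were grouped into distinct intervals, and each was described by its top summit, ranked by q and then by fold. Starts were those of Ensembl canonical coding transcripts of GENCODE M39 (GRCm39, the build of the files: 0 summits lay past a chromosome end). CpG observed/expected was the CpG count times the bases over the product of C and G counts. The value near a start is the highest summit within 500 bp. Shares have 95% Wilson and differences have Newcombe intervals (Python 3.11.15, pysam 0.24.0, scipy 1.17.1, pandas 2.3.3). The steps were tested on simulated data. No sample enters any comparison.

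The members, 10 gene lists, 29 families and 15 motifs were chosen with earlier results of these data known. Named were the 12 strongest members, up to 5 per list with up to 3 closed genes, 2 per family, those next to the threshold, and the 3 widest and lowest, and further listed genes were added for context after their values were seen. Alternatives varied the CpG threshold, window, peak filters and mismatches. Some items are not reported here.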

Additional observations from a re-analysis of the deposited data

How the results depend on the processing

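The number of members stayed within 1.5 times of 3055 under every alternative but 1, a minimum of 5-fold, which left 1621. The share of CpG-poor starts with a member, 38.7%, moved to 35.6% at a threshold of 0.35, 41.6% at 0.45, 36.9% with 250 bp on either side, 41.8% with 1000 bp, 32.2% at q under 1e-05, 22.1% at 5-fold or more, 29.5% for intervals up to 3000 bp, 29.2% with the highest summit in the window, and 35.7% without intervals at any other CpG-richer coding start. The median fold, 5.63, moved in the same order to 5.04, 6.35, 6.55, 4.26, 8.71, 14.7, 3.73, 4.58 and 5.17. Among alternatives chosen after seeing the data, a CpG-poor highest summit within 500 bp gave 27.7% and 4.39, leaving out chemoreceptor genes gave 48.1%, and the summits within 500 bp of each start gave a median of 4.65. The HNF1 difference, 1.36 points, reversed to −4.78 with 3 mismatches, and moved to 0.35 (−0.74 to 1.48) in 500 bp on either side, 2.79 for members of 5-fold or more and 2.80 against accessible CpG-richer starts. It was 0.70 with 1 mismatch and 1.75 without chemoreceptor genes. The cause of the reversal was not tested.

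No paired analysis was possible because the pooled call gives no value per library, and leaving out each replicate was not run for the same reason. Depth is unknown and 31.3% of the members were under 3-fold, so a start without an interval was not detectable in this call, which does not show that it was closed in every cell.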

Other observations

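Accessibility of CpG-poor starts varied with their surroundings. Of starts 5 to 20 kb from the nearest coding start of higher ratio 65.5% had a member, against 48.9% from 20 to 100 kb, 27.5% from 100 to 500 kb and 10.7% (114 of 1062) beyond 500 kb. Without chemoreceptor genes these shares were 66.8%, 53.6%, 37.7% and 22.2%. Starts 1 to 5 kb away were lower, at 39.8%, and had the lowest median fold of these classes, 3.57. Longer intervals join starts that lie near each other, so an interval that reached a CpG-richer start was no member by the rule. By chromosome the share ran from 29.8% on chromosome 14 to 52.6% on chromosome 15, and from 33.5% to 55.0% without chemoreceptor genes.

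Some gene families held strong members beside weak or closed genes. Or5m3b, an olfactory receptor gene, had 17.5 at 29 bp upstream, against a median of 2.75 for the 21 olfactory members. Sprr1a, of the cornified envelope, had 18.9 at 136 bp upstream, where no CpG was found around the summit, while the median of the 4 members of its family was 2.10. Defb1, the beta-defensin of kidney and other epithelia, had 22.3 at 23 bp upstream with a CpG ratio of 0.05, in a family with 14 members among 70 genes. Defb29 of the same family had 22.2 at 6 bp upstream. Krt8, a keratin of simple epithelia, had 26.1 at 77 bp downstream, while 34 of the 41 CpG-poor keratin genes had no interval. Il15 had 46.0 at 180 bp downstream and Akr1e1, an aldo-keto reductase, 55.5 at 10 bp upstream.

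The widest members were continuous stretches over several elements. The interval at Mroh2a spanned 48818 bp with 136 summits, that at Plec 36189 bp and that at Adgrg1 30223 bp. In Mroh2a the highest summit, 34.1, lay 35473 bp downstream of the start, which itself had 5.96.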
